A study of Mus musculus with 2 samples.

Results

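The oncofetal chromatin genes Hmga1 and Hmga2, the imprinted growth genes H19, Igf2, Meg3 and Dlk1, and the fetal liver products Afp and Gpc3 were followed in single hepatocytes that carried graded amounts of an NRAS transgene. The 8 genes were taken as listed symbols from the 31053 gene rows of the count matrix. All 8 had a row, and 7 of them had more than 10 unique molecular identifiers (UMIs, each standing for 1 captured RNA molecule) over all barcodes. Igf2 had 1. Livers of 3 BL6 mice were collected on day 6 after hydrodynamic tail-vein (HDTV) injection, which forces plasmid DNA into a fraction of hepatocytes. All 3 mice received a transposon in which the CAGGS promoter drove mVenus, a yellow fluorescent protein, together with mutant NRAS. In 2 mice the mutant was the oncogenic G12V form, and in 1 control mouse it was the non-oncogenic G12V/D38A form, so no group was free of the transgene. Cells of each mouse were tagged with a hashtag antibody, sorted for mVenus, pooled and sequenced as 1 gene expression library and 1 hashtag library.

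HMGA1 and HMGA2 are small chromatin proteins that bind AT-rich DNA, abundant in the embryo and scarce in adult tissue, and Hmga2 is a classical target of the let-7 microRNAs. H19 and Igf2 are neighbours that share enhancers and are expressed from opposite parental chromosomes, and the same holds for Meg3 and Dlk1. Dlk1 marks hepatoblasts, Afp is the albumin-like plasma protein of the fetal liver, and Gpc3 is a cell surface proteoglycan, all of which are shut down in the liver after birth and can return in liver cancer. The counts do not tell the parental alleles apart.

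In GENCODE vM21 on GRCm38 the genes lay on 6 chromosomes. Hmga1 was at chr17:27556497-27563674 on the plus strand and Hmga2 at chr10:120361275-120476469 on the minus strand. H19, a long non-coding RNA, was at chr7:142575529-142578143 on the minus strand, 72622 bases from Igf2 at chr7:142650766-142666816 on the same strand. Dlk1 at chr12:109452823-109463336 and the non-coding Meg3 at chr12:109541001-109571726 were both on the plus strand and 77664 bases apart. Afp was at chr5:90490737-90508907 on the plus strand and Gpc3 at chrX:52272426-52613950 on the minus strand. Start sites of RefSeq differed from these for some of the genes. Positions in the promoters below are counted from the RefSeq start.

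The H19 exon also holds the precursor of miR-675, whose mature forms lie at chr7:142577112-142577133 (5p) and chr7:142577078-142577099 (3p) on the minus strand. They are shown, from RefSeq on GRCm38.p6, because they are the small RNA products encoded within H19. Capitals mark the seed, bases 2 to 8. The library captured polyadenylated RNA, so no miRNA was measured.
miR-675-5p: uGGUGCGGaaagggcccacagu
miR-675-3p: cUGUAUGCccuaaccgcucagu

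The 250 bases before the RefSeq start site are shown for Hmga2, whose RNA rose with the transgene, for Meg3 and Dlk1, whose RNA fell, and for Afp, the classical fetal liver gene, so that their letters can be set beside the levels. Each is given 5′ to 3′ on the gene's own strand. Capitals mark matches to 5 short motifs that were searched on both strands: TATAAA (the TATA box), GTTAAT (part of the HNF1 site), TGANTCA (AP-1), CGGAAG (ETS) and CCAAT (NF-Y). Over 32851 RefSeq promoters of the same length, TATAAA was in 12.4%, GTTAAT in 6.43%, TGANTCA in 6.75%, CGGAAG in 13.6% and CCAAT in 33.8%.
Hmga2 promoter, chr10:120476470-120476719, minus strand: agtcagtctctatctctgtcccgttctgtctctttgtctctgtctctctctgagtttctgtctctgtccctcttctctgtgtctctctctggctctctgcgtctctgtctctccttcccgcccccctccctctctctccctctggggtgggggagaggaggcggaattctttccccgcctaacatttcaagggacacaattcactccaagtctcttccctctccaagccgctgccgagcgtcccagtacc
Meg3 promoter, chr12:109540746-109540995, plus strand: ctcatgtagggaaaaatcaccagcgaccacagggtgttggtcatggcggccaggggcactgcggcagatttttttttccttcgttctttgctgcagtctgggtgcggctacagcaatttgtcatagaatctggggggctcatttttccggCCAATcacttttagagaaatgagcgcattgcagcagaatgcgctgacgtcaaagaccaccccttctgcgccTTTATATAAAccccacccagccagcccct
Dlk1 promoter, chr12:109452573-109452822, plus strand: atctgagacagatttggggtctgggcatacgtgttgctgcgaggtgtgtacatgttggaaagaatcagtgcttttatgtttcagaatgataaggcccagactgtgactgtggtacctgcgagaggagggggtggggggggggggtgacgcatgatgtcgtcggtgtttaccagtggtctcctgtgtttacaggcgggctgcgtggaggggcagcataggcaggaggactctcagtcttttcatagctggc
Afp promoter, chr5:90490464-90490713, plus strand: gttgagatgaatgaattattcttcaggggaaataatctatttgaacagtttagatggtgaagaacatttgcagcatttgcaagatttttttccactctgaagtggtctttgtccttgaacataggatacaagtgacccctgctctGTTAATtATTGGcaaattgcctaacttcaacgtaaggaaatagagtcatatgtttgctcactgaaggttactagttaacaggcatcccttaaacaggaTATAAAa

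Counted from the RefSeq start, the Afp window held TATAAA from base -7 to -2, GTTAAT from -105 to -100 and CCAAT on the reverse strand from -98 to -94. That window ended at chr5:90490713, while the GENCODE gene began downstream at 90490737, so each motif lay further from the GENCODE start. The Meg3 window held TATAAA on both strands, overlapping between -29 and -20, and CCAAT from -100 to -96. The Hmga2 and Dlk1 windows held none of the 5 motifs. Afp had 1 CG pair, against 8 in Hmga2 and in Dlk1, 10 in Meg3 and a median of 6 over all promoters, while the Hmga1 window, not shown, had 34.

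Of 10220 barcodes that passed the quality filter, 8510 were hepatocytes, defined as barcodes in which Alb, Apoa1, Apoa2, Ttr and Fgb, which encode plasma proteins of the liver, made up at least 1% of gene UMIs. The other 1710 were below that share, although the samples were labelled as hepatocytes, and many held markers of dendritic or endothelial cells. The gene library held 142080194 UMIs in 13151 barcodes, of which 13141 were also in the hashtag library, and hepatocytes had a median of 3724.5 UMIs. Hashtags gave a mouse to 2278 hepatocytes, 71.88% had no call and 115 were called as doublets and left out. The 2 sources for the hashtags disagree. In the deposited pairing the D38A mouse carries hashtag 1 and the G12V mice carry hashtags 2 and 3, whereas in the methods of the study the D38A mouse carries hashtag 3 and the G12V mice carry 1 and 2. Mice are therefore named by hashtag, comparisons were made within mice, and no test was made between the genotypes.

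Dose was read from the Nras row in CPM (UMIs scaled to 1000000 gene UMIs), a row that does not separate the endogenous gene from the construct. Hepatocytes of at least 10000 UMIs were put into 4 bins, baseline (under 300), low (300 to 1000), intermediate (1000 to 3000) and high (at least 3000), and their UMIs were summed by mouse and bin. Hashtag 1 gave 153, 31, 24 and 23 cells to the bins in that order, hashtag 2 gave 827, 137, 93 and 72, and hashtag 3 gave 21 baseline cells and too few in any other bin. The contrasts between bins therefore rest on 2 mice, and p-values measure the spread between their sums. The transgene's reporter followed Nras: mVenus went from 10.7 to 377 CPM between baseline and high in hashtag 1 and from 7.77 to 330 in hashtag 2. The plasma protein genes of the gate fell from 7.30% to 4.64% of UMIs in hashtag 1 and from 9.92% to 4.91% in hashtag 2. Depth moved with dose too, with a median of 36007 UMIs per cell at baseline and 53072.5 in the high bin. Levels below are CPM of a sum, and differences are log2 fold changes (± SE) from edgeR's quasi-likelihood test with the mouse as a block and Benjamini-Hochberg adjustment over 10628 genes.

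Across the span of dose the listed genes did not move in 1 direction. Both Hmga genes rose from baseline to high Nras, by 2.50 and 2.02 on the log2 scale, and H19, Meg3 and Dlk1 fell. Afp was higher in the high bin, a call that was lost without the mouse block. In high against baseline Nras, 6 of the 8 genes had enough counts to be tested and all 6 were called, 3 higher and 3 lower, beside 23.7% of all genes tested (11.9% higher and 11.8% lower). Between low and baseline Nras, Hmga1, Hmga2 and Afp were called, all higher, beside 5.17% of genes (2.63% higher and 2.53% lower). Between intermediate and low Nras, Hmga1 was called higher and Dlk1 lower, beside 1.12% of genes (0.414% higher and 0.706% lower). Between high and intermediate Nras, none of the 6 was called, beside 0.00941% of genes (1 gene by edgeR, 561 genes at an unadjusted p under 0.05, and 22 by DESeq2).

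**Figure D1:**
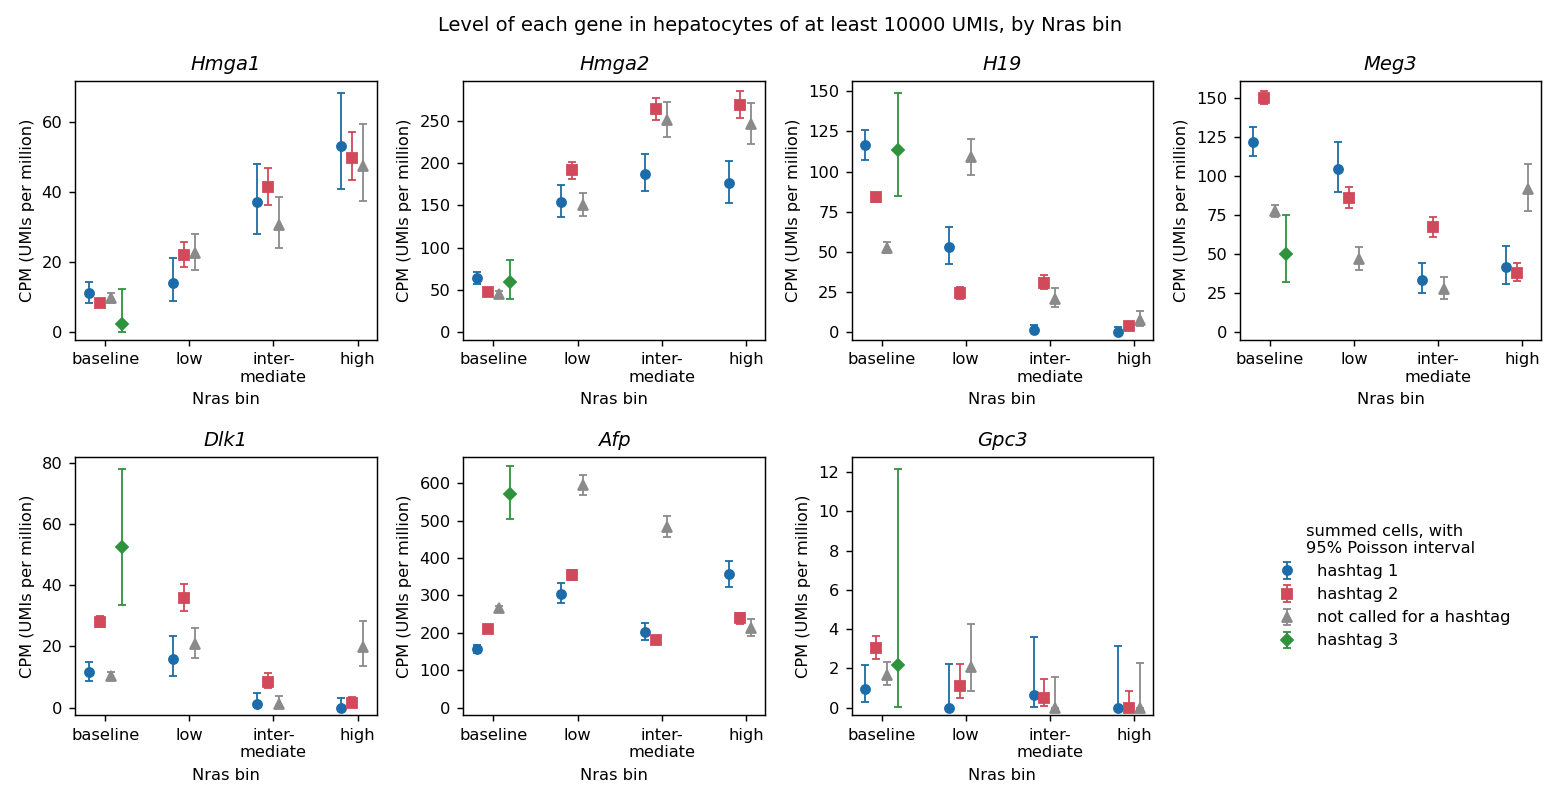
Level of 7 genes in hepatocytes of at least 10000 UMIs, in CPM on linear axes, by Nras bin; points are sums over the cells of a mouse or over the cells with no hashtag call, and bars are exact 95% Poisson intervals, which cover counting error only. Hmga1 and Hmga2 rise from left to right, H19 ends at 0 and 3.99 CPM in the high bin of the hashtag 1 and hashtag 2 mice, and Afp is above baseline at low Nras.

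Hmga1 encodes the more widely expressed of the HMGA proteins. In hashtag 1 its level was 11 CPM at baseline, 14 at low, 37.0 at intermediate and 53.2 at high Nras. In hashtag 2 it was 8.19, 21.9, 41.3 and 49.7. With all cells counted the order was the same in both mice. The lowest high-bin level was above each of the baseline levels, hashtag 3 included at 2.18. The first step was small in hashtag 1. Without the highest cell of each bin, its low bin was at 10.27 CPM and its baseline at 10.29, while hashtag 2 had 21.2 and 8.03. Leaving out 1 cell takes a larger share of a low bin than of a baseline. Hmga1 rose by 1.14 ± 0.21 from baseline to low Nras (edgeR adjusted p = 0.0112), by another 1.01 ± 0.20 from low to intermediate (edgeR adjusted p = 0.0469), and differed by 0.35 ± 0.19 between intermediate and high (edgeR adjusted p = 0.975). The first of these steps was called in 11 of 14 alternatives and the second in 9 of 14, where the largest edgeR adjusted p was 0.344 (with the gate at 5%). The whole span came to 2.50 ± 0.20 (edgeR adjusted p = 1.22e-05). A near-identical row, Hmga1b, held 227 UMIs against 2071 for Hmga1, and reads may be split between them.

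Hmga2, the fetal and let-7 regulated member of the pair, rose earlier. Its level in hashtag 1 was 64.1 CPM at baseline, 154 at low, 187 at intermediate and 177 at high Nras, and in hashtag 2 it was 47.9, 192, 264 and 269. Most of its increase was thus in place at the low bin, and both mice were flat between intermediate and high. The fit gave a rise of 1.67 ± 0.20 from baseline to low Nras (edgeR adjusted p = 0.00104), with differences of 0.37 ± 0.19 (edgeR adjusted p = 0.512) and -0.02 ± 0.19 (edgeR adjusted p = 1.0) at the next steps. Over the whole span it rose by 2.02 ± 0.20 (edgeR adjusted p = 5.02e-05). In cells whose gate genes made up at least 5% of UMIs, Hmga2 was higher in the high than in the intermediate bin, by 0.96 (edgeR adjusted p = 2.04e-06), but both of those bins then came from hashtag 2 alone.

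H19, the maternally expressed non-coding RNA, went the other way. Its level was 116 CPM at baseline in hashtag 1, 83.8 in hashtag 2 and 114 in hashtag 3. In the high bin hashtag 1 had 0 H19 UMIs among 1166452, which is at least 45.3-fold lower than its baseline when 3 counts are taken as the limit of a count of 0, and hashtag 2 had 3.99 CPM. Without the highest cell at baseline, the bound for hashtag 1 was at least 19.1-fold. The fall over the whole span was called, with a fitted difference of -4.95 ± 0.80 (edgeR adjusted p = 0.00118), a size that depends on the prior count because 1 sum was at 0. The steps in between did not pass the test. Hashtag 1 held 53.1 CPM at low and 1.30 at intermediate Nras, while hashtag 2 held 24.0 and 30.8. Of the 238 H19 UMIs in all intermediate cells, cells with no hashtag call included, 57.56% were in 1 cell.

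Meg3 and Dlk1, neighbours in 1 imprinted domain and expressed from opposite chromosomes, also fell. Meg3, a non-coding RNA, was at 122, 105, 33.7 and 42.0 CPM from baseline to high in hashtag 1 and at 150, 86.0, 67.1 and 38.2 in hashtag 2. Baseline in hashtag 3, at 50.2, was within the range of the other mice's dosed bins. The fall over the whole span was 1.80 on the log2 scale ± 0.24 (edgeR adjusted p = 0.000384), and no single step passed the test.

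Dlk1, a transmembrane Notch-like protein of hepatoblasts, did not fall at the first step. It was at 11.6, 15.9, 1.30 and 0 CPM in hashtag 1 and at 28.0, 35.7, 8.56 and 1.64 in hashtag 2, with 52.4 at baseline in hashtag 3, all from 1 cell. With all cells counted, the low bin of hashtags 1 and 2 was thus the highest and the intermediate bin was lower than baseline. The difference between low and baseline did not pass the test (0.39 ± 0.20, edgeR adjusted p = 0.376), whereas the fall from low to intermediate did (-2.24 ± 0.26, edgeR adjusted p = 0.00795), as did the whole span (-4.27 ± 0.38, edgeR adjusted p = 2.54e-05). With no Dlk1 UMI in the high bin of hashtag 1, its level there was at least 4.5-fold lower than at baseline, or at least 2.41-fold lower than baseline without its highest cell. Single cells weighed on the low bin, where 1 cell held 126 of the Dlk1 UMIs of hashtag 2 and 1 cell held 22 of the 26 of hashtag 1. Without the highest cell of each bin, low was below baseline in both mice. It was then at 2.48 against 6.21 CPM in hashtag 1 and at 18.2 against 21.8 in hashtag 2.

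Afp, the fetal counterpart of albumin, was highest at different bins in different mice. It was at 157, 305, 203 and 357 CPM from baseline to high in hashtag 1, at 211, 355, 180 and 239 in hashtag 2 and at 572 at baseline in hashtag 3. The low bin was above baseline in hashtags 1 and 2, but the baseline of hashtag 3 was above every bin of the others. The fit gave 0.87 ± 0.21 for low against baseline (edgeR adjusted p = 0.0388) and 0.68 ± 0.21 for high against baseline (edgeR adjusted p = 0.0385). The second call rested on few cells. In the high bin of hashtag 1, 1 cell held 249 UMIs, and the level was 152 CPM without it, against 138 at baseline without its own highest cell. Leaving out the highest cell of each sum, which takes a larger share of the cells of the small bins than of baseline, gave a difference of 0.02 for high against baseline (edgeR adjusted p = 0.97) and 0.54 for low against baseline (edgeR adjusted p = 0.13). Without the mouse block high against baseline was 0.14 (edgeR adjusted p = 0.878).

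Gpc3, a glypican that is a marker of hepatocellular carcinoma, was scarce. At baseline it was at 0.934 CPM for hashtag 1, 3.02 for hashtag 2 and 2.18 for hashtag 3. No UMI was found in any high-bin cell of at least 10000 UMIs, including cells with no hashtag call. Among high-Nras hepatocytes of 3000 to 10000 UMIs there was 1 Gpc3 UMI. For hashtag 2 the high bin was at least 4.3-fold lower than baseline, and for hashtag 1 the depth allowed no such statement. Gpc3 was below the count filter and was not tested.

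Igf2, the fetal growth factor next to H19, had 1 UMI in all barcodes and none in hepatocytes. Its exons share 3596 of 5723 bases (62.83%) with Gm49394, a gene on the same strand whose row held 0 UMIs. Counting of the kind used here leaves out reads that match 2 genes, so the Igf2 row gives no measure of Igf2 RNA in these cells.

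**Figure D2:**
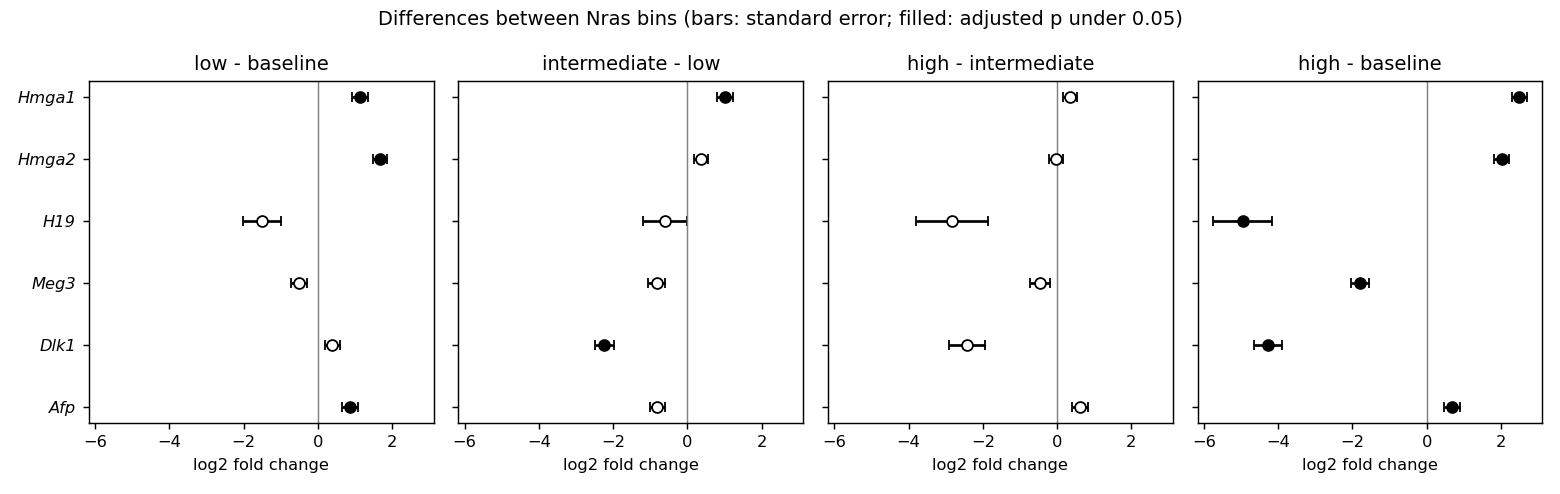
Log2 fold changes of the 6 tested genes for each step between Nras bins and for the whole span, from edgeR's quasi-likelihood test; points are fitted values, bars are standard errors, and filled points have an adjusted p under 0.05. Hmga2 moves mainly at the first step (1.67) and Hmga1 at the first and the second step (1.14 and 1.01), while Dlk1 falls at the second (-2.24).

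The 851 deeply covered hepatocytes with no hashtag call were not in the fit, and their levels can be set beside it as a description. From baseline to high Nras, Hmga1 was at 9.70, 22.4, 30.6 and 47.5 CPM and Hmga2 at 45.4, 151, 251 and 246, the same course as in the called cells. H19 was at 52.6, 109, 20.8 and 7.49, so it was highest in the low bin here and lowest in the high bin. Meg3 did not follow the called cells, with 77.8, 46.6, 27.6 and 91.8. Dlk1 was at 10.3, 20.6, 1.28 and 20, and 32 of its UMIs in the high bin were in 1 cell. Afp was at 266, 595, 484 and 214, highest in the low bin, as in hashtag 2.

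Shares of cells with a UMI of the Hmga genes were also higher at high than at baseline Nras after each cell had been thinned to 10000 UMIs. Among the 2236 pooled hepatocytes of that depth or more, Hmga1 was detected in 7.32% of baseline and 38.1% of high-bin cells (22.1% and 77.6% before thinning). Hmga2 was detected in 22.6% and 78.4% (42.4% and 90.3% before thinning). In hashtag 1 the thinned Hmga1 share was 9.15% at baseline, 33.3% at intermediate (8 of 24 cells) and 21.7% at high Nras (5 of 23), unlike the order of its levels. Dendritic cell-like barcodes, which had a median of 12061 UMIs, showed Hmga1 in 6.80% and Hmga2 in 2.38%. Their Hmga2 can stand for background, below the baseline share of hepatocytes, whereas their Hmga1, at 49.0% of the hepatocyte level with Alb at 3.76%, was above what free RNA at the Alb share would bring.

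For the imprinted RNAs the shares were smaller. H19 was detected in 9.66% of baseline and 2.99% of high-bin cells after thinning (14.7% and 8.96% before), beside 3.74% in dendritic cell-like barcodes. Pooled Meg3 was detected in 21.4% and 9.70% (28.7% and 16.4% before thinning), beside 3.06% in dendritic cell-like barcodes. The mice differed in this. After thinning, Meg3 was in 28.3% of baseline and 6.94% of high-bin cells of hashtag 2. In hashtag 1 it was in 13.73% of baseline cells (21 of 153) and 13.04% of high-bin cells (3 of 23), with no clear fall. Dlk1 was detected in 4.26% and 1.49% (6.30% and 2.24% before thinning), beside 0.680%. The thinned high-bin share of H19 came from 4 of 134 cells, with an interval of 0.819% to 7.47%. That interval included the 3.74% of dendritic cell-like barcodes, so the high bin could not be placed above or below them. H19 in those barcodes was at 8.5% of the hepatocyte level, with Alb at 3.76%. Their H19 share is therefore not shown to be background. Afp detection was not lower in the high bin, with 50.2% of baseline and 53.0% of high-bin cells (70.5% and 78.4% before thinning) beside 9.52% in dendritic cell-like barcodes.

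The fetal RNAs were carried by few cells. Of 2236 hepatocytes, 12 held 50% of all Dlk1 UMIs, 19 held 50% of Gpc3 and 20 held 50% of H19, whereas 79 cells were needed for Meg3, 105 for Afp, 142 for Hmga2 and 152 for Hmga1. The cell with the highest H19 level, a baseline cell of hashtag 1, held 361 H19 UMIs, or 19010 CPM, and without it the hashtag 1 baseline was 49.1 instead of 116 CPM. At least 500 CPM were reached by 81 cells for H19, 151 for Meg3, 24 for Dlk1, 229 for Afp, 86 for Hmga2 and none for Hmga1.

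**Figure D3:**
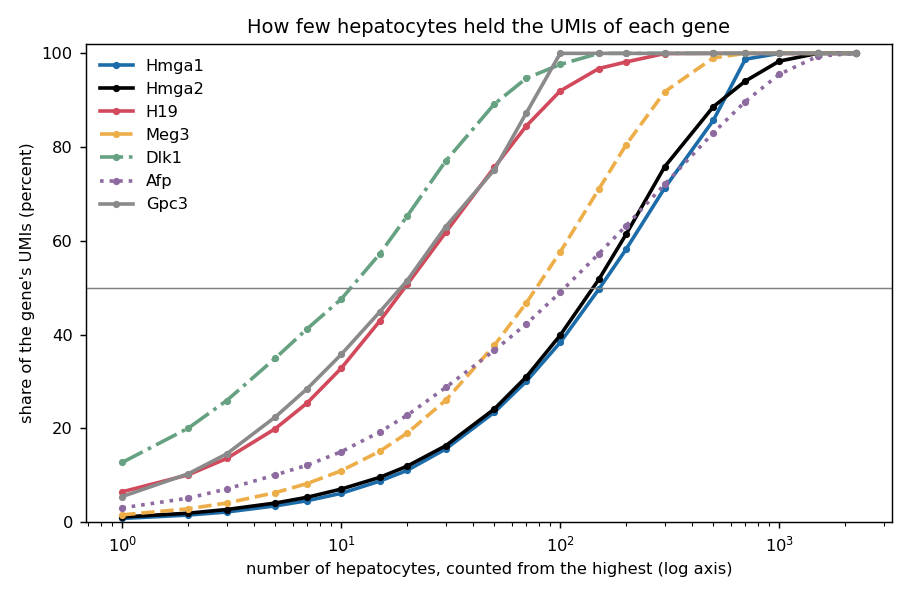
Cumulative share of each gene's UMIs (percent) against the number of hepatocytes counted from the highest (log axis), over 2236 hepatocytes of at least 10000 UMIs; the grey line marks 50%. Dlk1, Gpc3 and H19 reach it within 12, 19 and 20 cells and the Hmga genes within 142 and 152.

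Cells with an imprinted RNA tended to hold another, and to lack Hmga2, as a description over cells of 3 pooled mice thinned to the same depth. Meg3 was detected in 41.6% of the 190 cells with H19 and in 17.6% of those without. Dlk1 was detected in 14.5% of the 440 cells with Meg3 and in 1.61% of those without. Hmga2, in contrast, was detected in 15.8% of cells with H19 and in 33.4% of those without, and in 19.8% of cells with Meg3 against 34.9%. Within the baseline bin, where all cells were under 300 CPM of Nras, pooled Hmga2 was in 13.7% of cells with H19 and 23.5% of those without, and Meg3 was in 39.8% against 19.5%. The mice differed in the first of these. In hashtag 2, Hmga2 was in 14.1% of the 78 baseline cells with H19 and 24.4% of those without, while in hashtag 1 it was in 22.2% of the 18 cells with H19 and 18.5% of those without. For Meg3 the shares with Hmga2 were 15.8% against 26.5% in hashtag 2 and 19.05% against 18.94% in hashtag 1. The Hmga genes were found together, with Hmga2 in 40.2% of baseline cells with Hmga1 and in 21.2% of those without. Afp showed no such division, and was in 47.8% of baseline cells with H19 and 50.5% of those without.

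The 5 plasma protein genes of the gate moved with all of this. Among baseline cells without markers of another type, pooled over mice, Hmga2 was at 97.4, 92.3, 44.7, 13.9 and 1.20 CPM as the gate genes took 1 to 2%, 2 to 5%, 5 to 10%, 10 to 20% and at least 20% of UMIs. Hmga1 fell along the same bands, from 19.2 to 0.602. H19 ran in the opposite direction, at 15.2, 7.61, 40.5, 117 and 545, and so did Meg3, at 30.3, 44.7, 42.5, 221 and 460, and Dlk1, at 0.309, 1.83, 2.09, 27.7 and 316. Of the 678 H19 UMIs behind 40.5, 392 were in 5 cells of hashtag 1, and hashtag 2 alone was at 20.2 in that band. Pooled over mice, cells richest in hepatocyte plasma protein RNA thus held the most H19, Meg3 and Dlk1 and the least Hmga2, at baseline Nras. Afp rose less, from 107 to 390, and Gpc3 was at 0.619 in the first band and 13.8 in the last. Barcodes just under the gate, 37 in all with 0.5 to 1% of UMIs from the gate genes, no markers of another type and at least 10000 UMIs, had 129 CPM of Hmga2 and 3.95 of H19. The last band had 43 cells, 22 of them of hashtag 2, and hashtag 1 had fewer than 10 there. Those 22 cells held 723 of its 905 H19 UMIs, 649 of 765 for Meg3, 501 of 525 for Dlk1 and 21 of 23 for Gpc3. The levels of that band thus came mainly from 1 mouse. The gate genes are also part of the total to which every level is scaled.

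Within a band the high bin could be set beside baseline, first pooled over mice and cells with no hashtag call. Hmga2 was at 267 CPM in the high bin against 97.4 at baseline in the 1 to 2% band, 230 against 92.3 in the 2 to 5% band and 246 against 44.7 in the 5 to 10% band, so it was higher with dose at each like share of gate genes. Hmga1 was higher as well, at 80.1 against 19.2, 53.1 against 16.3 and 31.2 against 8.48. In the mice with at least 10 high-bin cells the direction was the same: Hmga2 was at 216 against 98.0 in hashtag 1 and 229 against 110 in hashtag 2 in the 2 to 5% band, and at 258 against 47.2 in hashtag 2 in the 5 to 10% band.

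For H19 and Afp the order within a band depended on the mouse, and Dlk1 was too scarce to be ordered by mouse. Pooled H19 was at 0 against 15.2, 4.40 against 7.61 and 1.73 against 40.5 in the high bin and at baseline of the same bands, but in the 2 to 5% band of hashtag 2 it was at 4.61 in the high bin and 2.80 at baseline, from 6 and 15 UMIs. In the 5 to 10% band of hashtag 2, H19 was at 2.53 against 20.2, from 2 and 197 UMIs. Pooled Meg3 was at 1.01 against 30.3, 4.79 against 44.7 and 45.9 against 42.5. The last pair rested on 53 UMIs in 4 high-bin cells, and in hashtag 2 alone Meg3 was at 7.60 against 38.4 there. In the 2 to 5% band Meg3 was at 4.19 against 207 in hashtag 1 and at 6.15 against 17.0 in hashtag 2. The hashtag 1 baseline value came from 154 UMIs in 4 cells. Pooled Dlk1 was at 0 against 0.309, 0.400 against 1.83 and 0 against 2.09. In the 2 to 5% band of hashtag 2, Dlk1 was at 0.768 against 0.373, from 1 and 2 UMIs. Pooled Afp was at 80.1 against 107, 153 against 211 and 156 against 198. By mouse, in the 2 to 5% band, it was at 182.4 against 122.1 in hashtag 1 and at 144 against 149 in hashtag 2, and in the 5 to 10% band of hashtag 2 at 153 against 178. In the band above 10%, which held the highest H19, Meg3 and Dlk1 levels, there were fewer than 10 high-bin cells, so there the fall of those RNAs with dose and the fall of the gate genes cannot be told apart.

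**Figure D4:**
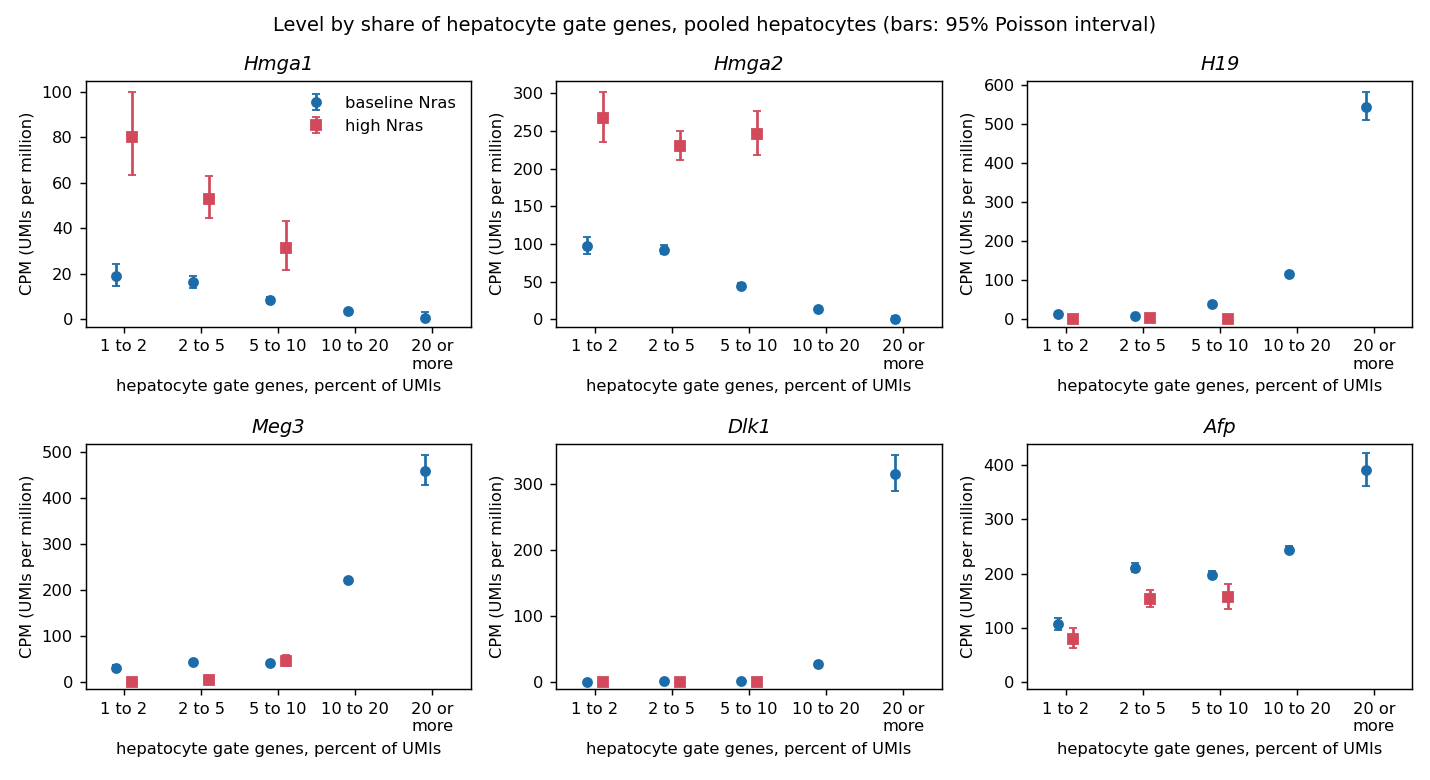
Level of 6 genes (CPM, linear axes) against the share of UMIs from Alb, Apoa1, Apoa2, Ttr and Fgb, in pooled hepatocytes of at least 10000 UMIs without markers of another type, at baseline and at high Nras; bars are exact 95% Poisson intervals. At baseline Hmga2 goes from 97.4 in the first band to 1.20 in the last and H19 from 15.2 to 545, and high-bin Hmga2 is above baseline in each band shown for both.

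Depth was a second axis. At baseline Nras, hepatocytes of at least 10000 UMIs were compared with those of 1000 to 10000 UMIs within each mouse. Hmga2 was at 64.1 against 6.25 CPM in hashtag 1, 47.9 against 10.3 in hashtag 2 and 59.0 against 10.7 in hashtag 3. Dlk1 was at 11.6 against 5.0, 28.0 against 15 and 52.4 against 11.6, but the 24 UMIs behind the deep value of hashtag 3 were in 1 of 21 cells and the 12 behind its shallow value in 2 cells. Of the listed genes 5 were tested and 2 were called, both higher in deep cells, beside 33.0% of the 7082 genes tested (17.3% higher and 15.6% lower). They were Hmga2, at 2.78 ± 0.27 (edgeR adjusted p = 0.001), and Dlk1, at 1.58 ± 0.33 (edgeR adjusted p = 0.0106). Meg3 was at 122 against 2.50, 150 against 116 and 50.2 against 6.79, and its difference of 2.02 ± 0.66 did not pass (edgeR adjusted p = 0.0513). H19 differed by 0.33 ± 0.30 (edgeR adjusted p = 0.434). The median mitochondrial share was 7.34% in deep and 0.803% in shallow cells of hashtag 1, 8.94% and 1.74% in hashtag 2, and 5.42% and 5.52% in hashtag 3. Its part in these differences was not tested. With the gate at 5% the differences of H19, Meg3 and Dlk1 changed sign, to -1.17, -0.22 and -0.42.

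The dose difference of the Hmga genes was also called among the deepest cells. Restricting the fit to cells of at least 30000 UMIs gave 2.42 for Hmga1 and 1.82 for Hmga2 in high against baseline (edgeR adjusted p = 5.47e-06 and 0.000113). Among hepatocytes of 3000 to 10000 UMIs, Hmga2 was at 116 CPM in the high bin and 10.4 at baseline. H19 was different there, at 69.6 CPM in the 32 shallow high-bin cells, but its 12 UMIs came from 2 cells.

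The level of the listed genes in the control mouse depends on the pairing. At baseline Nras under the deposited pairing, the D38A mouse (hashtag 1) had 64.1 CPM of Hmga2 with a 95% Poisson interval of 57.5 to 71.3, and the G12V mice had 47.9 (45.6 to 50.2) and 59.0 (38.9 to 85.8). Under the methods' pairing, the D38A mouse is hashtag 3, with 59.0, and lies between the others. Under the deposited pairing the hashtag 1 mouse has 23 high-bin hepatocytes with Hmga1 at 53.2 and Hmga2 at 177 CPM, so the rise with dose would then be present in the D38A mouse too. Under the methods' pairing both mice with a high bin are G12V mice and the D38A mouse has none of sufficient size. Intervals cover counting error only, and 1 control mouse allows no test.

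Among barcodes under the hepatocyte gate, types were named from at least 3 detected markers. The 36 cholangiocyte-like barcodes held any 3 or more of Epcam, Krt19, Krt7, Spp1, Sox9 and Cldn7, genes of bile duct epithelium. Spp1 and Sox9 were also higher at high Nras within the hepatocyte gate, as given below, so the name stands for this rule only. The 36 barcodes had 390 CPM of Hmga2 (95% Poisson interval 353 to 431) and 76.1 of Hmga1 (59.9 to 95.2). All deeply covered hepatocytes had 104 and 16.9. These barcodes carried Nras at 6528 CPM, against 846 in all deeply covered hepatocytes and 6227 in the high bin of hashtag 2. Their Alb level was 5.35% of that of the hepatocytes. Of their 390 Hmga2 UMIs, 171 were in 3 barcodes. Their H19, at 4.0 CPM, and their Meg3, at 18.0, were below the levels of 61.8 and 104 in all deeply covered hepatocytes. Most of those hepatocytes were at baseline Nras. The pooled high bin of the hepatocytes was nearer, with H19 at 4.07, Meg3 at 50.4, Hmga2 at 251 and Hmga1 at 49.7. High-bin hepatocytes with gate genes at 1 to 2% of UMIs, without markers of another type, had Hmga2 at 267, Hmga1 at 80.1 and Meg3 at 1.01.

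Types with fewer than 20 barcodes (10 stellate, 16 plasmacytoid dendritic and 5 neutrophil) were not measured. Dendritic cell-like barcodes (548) had 5.93 CPM of Hmga2, 8.30 of Hmga1, 5.25 of H19, 2.20 of Meg3, 0.508 of Dlk1 and 12.4 of Afp, and their Alb was 3.76% of the hepatocyte level. In relation to the hepatocytes, Hmga2 was at 5.72%, Afp at 4.81% and Meg3 at 2.12%, near the 3.76% of Alb. H19 was above that share, at 8.5%, and Hmga1 was far above it, at 49.0%. Of the 35 Hmga2 UMIs, 22 were in 1 barcode. Endothelial-like barcodes (545) had 30.3 CPM of H19, but 45 of the 75 UMIs were in 1 barcode, and 6.87 of Hmga2 with Alb at 7.12% of the hepatocyte level. Among the 7 groups measured, H19, Meg3, Dlk1 and Afp were highest in hepatocytes, and Hmga1, Hmga2 and Gpc3 were highest in cholangiocyte-like barcodes. The Gpc3 value rested on 13 UMIs in 4 barcodes.

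**Figure D5:**
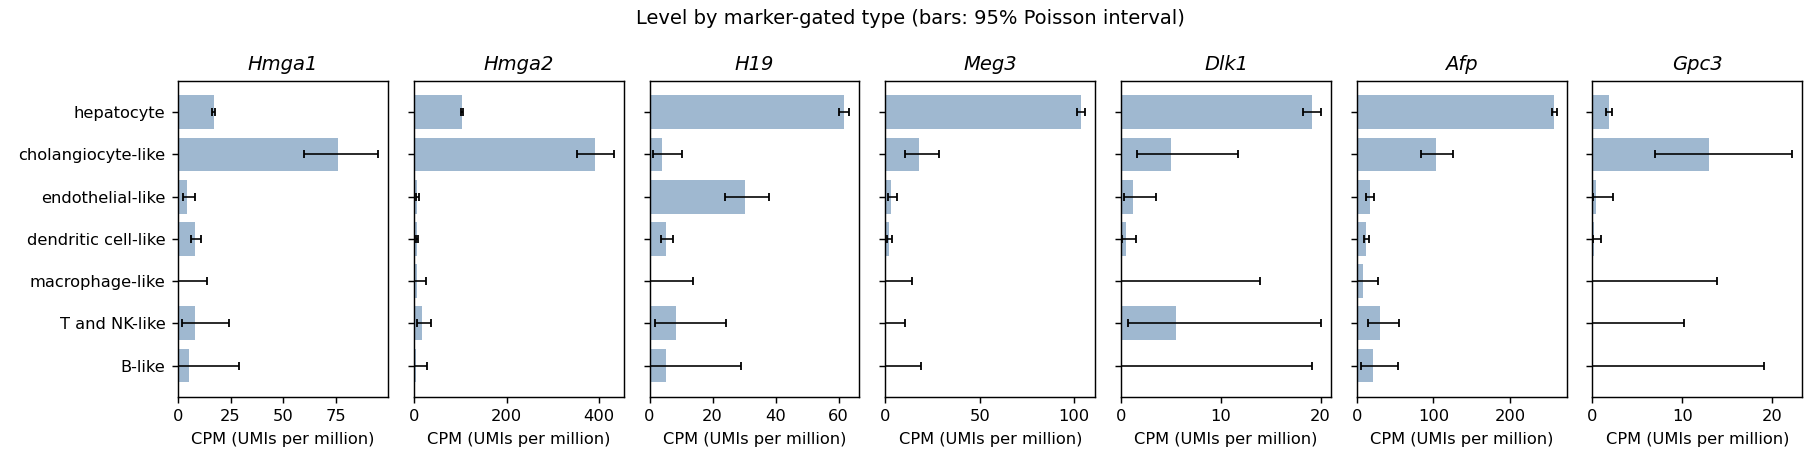
Level of 7 genes (CPM, bars from 0) in deeply covered hepatocytes of all Nras bins together and in marker-gated types under the hepatocyte gate. Whiskers are exact 95% Poisson intervals of the pooled sums. Hmga1, Hmga2 and Gpc3 are highest in the 36 cholangiocyte-like barcodes, and H19, Meg3, Dlk1 and Afp in hepatocytes.

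Some cholangiocyte markers were also higher at high Nras inside the hepatocyte gate. The summed level of the 6 markers was 3827 CPM at baseline and 15527 in the high bin of hashtag 1, and 2605 and 18647 in hashtag 2, and nearly all of it was Spp1, which encodes the secreted protein osteopontin. All 6 markers were detected at baseline in both mice, and 4 and 5 of them in the smaller high bins. Spp1 rose by 2.48 ± 0.15 (edgeR adjusted p = 2.96e-06) and Sox9, a transcription factor of bile duct cells, by 0.79 ± 0.25 (edgeR adjusted p = 0.0438). Epcam (2.63 ± 0.92, edgeR adjusted p = 0.0648) and Cldn7 (0.59 ± 0.63, edgeR adjusted p = 0.573) did not pass, and Krt19 and Krt7 were too scarce to be tested, with 0 Krt19 UMIs in both high bins and 1 Krt7 UMI. Of the deeply covered hepatocytes, 308 had at least 3 markers of another type, 196 of them cholangiocyte markers. In a fit without such barcodes the high against baseline difference was 2.16 for Hmga2, 2.59 for Hmga1, -4.62 for H19, -1.45 for Meg3 and -3.86 for Dlk1, all called by edgeR (largest adjusted p = 0.000787).

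Genes of the same pathways gave the wider setting. All counts below are for high against baseline Nras, where 23.7% of all genes tested were called (11.9% higher and 11.8% lower) and the median log2 fold change over all genes was -0.02. Of 30 other imprinted genes, 15 were tested, 4 were called lower and 1 higher, with a median of -0.40. The largest falls were those of Ddc (-3.89 ± 0.34, edgeR adjusted p = 2.02e-05), an amino acid decarboxylase, and Slc38a4 (-1.96 ± 0.19, edgeR adjusted p = 4.07e-05), an amino acid transporter. In hashtag 2 Ddc went from 14.8 to 0.938 CPM and Slc38a4 from 70.4 to 19. Peg3 fell by 1.51 on the log2 scale ± 0.32 (edgeR adjusted p = 0.00676) and Igf2r, the receptor that clears IGF2, rose by 0.60 ± 0.15 (edgeR adjusted p = 0.0171).

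The Lin28 and let-7 axis, which controls Hmga2 in the embryo, had 9 of 18 genes tested and 2 called, both higher, a share near the 23.7% of all genes, with a median of 0.23. They were the cyclins Ccnd1 (1.53 ± 0.13, edgeR adjusted p = 1.77e-05) and Ccnd2 (0.73 ± 0.17, edgeR adjusted p = 0.0101). Lin28a and Lin28b themselves were below the count filter. Igf2bp2, which binds Igf2 mRNA and is itself a target of HMGA2, differed by 0.23 ± 0.20 (edgeR adjusted p = 0.47).

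Of 20 fetal liver and hepatoblast genes, 13 were tested, 5 were called higher and 1 lower, beside 11.9% and 11.8% of all genes, with a median of 0.20. Cd44, a hyaluronan receptor, went from 29.3 to 120 CPM in the hashtag 1 mouse and from 22.2 to 140 in the hashtag 2 mouse (2.41 ± 0.15, edgeR adjusted p = 3.57e-06). Pkm, whose M2 form is the fetal pyruvate kinase, rose by 1.57 ± 0.12 (edgeR adjusted p = 1.08e-05) and Ctsl, a lysosomal protease, by 0.86 ± 0.10 (edgeR adjusted p = 0.000172). Spink1, a secreted trypsin inhibitor, was the 1 that fell, from 3.87 to 0.235 CPM in hashtag 2 (-4.28 ± 0.84, edgeR adjusted p = 0.004). The proliferation genes Mki67 and Top2a of this list did not pass the test, at -1.87 ± 1.36 and -1.53 ± 1.26.

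Of 17 regulators that hold fetal genes down or maintain the adult state, 16 were tested, 5 were called lower and none higher, with a median of -0.31 (11.8% of all genes were called lower). Nr1h4, the bile acid receptor, fell by 2.11 on the log2 scale ± 0.22 (edgeR adjusted p = 7.12e-05), Cebpa by 1.50 ± 0.13 (edgeR adjusted p = 2.09e-05), Nr5a2 by 1.30 ± 0.20 (edgeR adjusted p = 0.000892) and Zhx3 by 1.15 ± 0.26 (edgeR adjusted p = 0.00943). Zhx2, the known repressor of Afp, H19 and Gpc3 in adult mouse liver, differed by -0.09 ± 0.54 (edgeR adjusted p = 0.951), and Zbtb20, another repressor of Afp, fell by 0.74 ± 0.14 (edgeR adjusted p = 0.00353). Zhx2, Zbtb20, Igf2bp2, Mki67 and Top2a are named for their roles, after their values were seen.

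Of 14 genes of the Igf axis 13 were tested, 3 were called higher and 5 lower, beside 11.9% and 11.8% of all genes, with a median of -0.55. Igf1, the growth factor that the adult liver secretes, went from 169 to 20.6 CPM in the hashtag 1 mouse and from 179 to 18.8 in the hashtag 2 mouse (-3.15 ± 0.18, edgeR adjusted p = 1.9e-06). Igfals, which carries IGF1 in plasma, fell by 2.82 on the log2 scale ± 0.35 (edgeR adjusted p = 0.000223). The binding proteins Igfbp3 and Igfbp1 rose, Igfbp3 from 115 to 728 CPM in the hashtag 1 mouse and from 87.8 to 690 in the hashtag 2 mouse (2.84 ± 0.12, edgeR adjusted p = 1.02e-06), and Igfbp1 by 1.77 ± 0.14 (edgeR adjusted p = 1.12e-05).

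Over the 9 sums, which share mice and are ordered by the same dose, each gene's level on the log2(CPM + 1) scale was compared with those of 6479 genes of at least 10 CPM. Hmga1 was most like Mak16, Gar1 and Eef1e1 (Pearson r = 0.992, 0.992 and 0.991), and genes most like Hmga2 included Neo1 and Cstb (r = 0.986 and 0.98). H19 was most like Zfp637, Hjurp and Arid1a (r = 0.977, 0.967 and 0.953), Meg3 like Metap1d, Slc16a7 and Tmem53 (r = 0.955, 0.952 and 0.939), and Dlk1 like Aox1, Sh2d3c and Azin1 (r = 0.959, 0.954 and 0.954). Afp had the weakest likeness, with r = 0.905, 0.873 and 0.869 for Mesd, Slc39a9 and Ppp1r13b, and Gpc3 was most like 2900026A02Rik, Eps8l2 and Gucd1 (r = 0.963, 0.945 and 0.944). Among the listed genes themselves, r was 0.86 between Hmga1 and Hmga2, 0.90 between H19 and Dlk1 and -0.81 between Hmga1 and H19.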

How the data were processed

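Gene and hashtag libraries were made with the 10x Genomics 3′ kit from mVenus-sorted liver cells of 3 mice. The authors deposited raw UMI counts per gene and barcode, aligned to mm10 with Cell Ranger (2.1.1 per the submitters' processing notes, 3.0.2 in the matrix header), and raw counts per hashtag. Reads that match more than 1 gene are not counted by that pipeline. Barcodes were assigned with HTODemux (Seurat 5.3.0) and kept where they held 500 genes or more, 1000 UMIs or more and a mitochondrial share below 20%. Only hashtag doublets were removed, so doublets within a mouse and among uncalled barcodes remain. Nras, mVenus and 6 hashtag rows were left out of library sizes. Sums of at least 10 cells per mouse and bin were fitted with edgeR 4.0.16 in R 4.3.3 on all genes, with DESeq2 1.42.0 as an alternative, after a test on simulated data. Levels have exact 95% Poisson intervals. Alternatives varied demultiplexing, normalization, filters, gate, depth, bins and mice. From each pathway list the text names at most 4 called genes, those with the largest change, and for each member its 3 most correlated genes, and 1 gene chosen in this way is not reported here. The members, lists and bins were chosen with earlier results of these data known. Nothing says that sums of a mouse are independent samples.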

Additional observations from a re-analysis of the deposited data

Results flagged for a closer look

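Under the deposited pairing the hashtag 1 and hashtag 2 mice belong to different genotypes, and 3 steps of the tested genes then went in opposite directions in them. For intermediate against low Nras, H19 differed by -4.56 in hashtag 1 and by 0.34 in hashtag 2, on the log2(CPM + 1) scale. For high against intermediate Nras, Hmga2 differed by -0.086 in hashtag 1 and 0.025 in hashtag 2, and Meg3 by 0.31 in hashtag 1 and -0.80 in hashtag 2. With 1 mouse on each side the difference between them was not tested, and under the methods' pairing both mice are G12V mice. For H19, 137 of the UMIs of hashtag 2 at intermediate Nras were in 1 cell, and without it the level was 8.33 instead of 30.8 CPM.

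Hmga2 was also found outside the hepatocyte comparisons. In 339 barcodes under the hepatocyte gate with no type called, it was at 106 CPM (95% Poisson interval 96.0 to 118), against 104 in the deeply covered hepatocytes and 5.93 in dendritic cell-like barcodes. These barcodes held Nras at 862 CPM, with Alb at 5.13% of the hepatocyte level, and Hmga1 was at 35.1 and Gpc3 at 7.52 CPM in them. When types were named from at least 2 markers, 177 barcodes stayed without a type, with Hmga2 at 48.6, Nras at 472, Hmga1 at 25.1 and Gpc3 at 19.9 CPM, and no Hmga2 UMI in the 30 of hashtag 1.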

How the results depend on the processing

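Of 513 values under an alternative, 367 were classed as the same, by a rule that differed with the kind of value. For a tested gene the same meant equal direction and side of the threshold. For a count of called genes it meant within a fixed factor of the main count. For an untested ratio of 1 mouse it meant within the standard error of the fitted value, and for a count of listed genes an equal count. High against baseline Nras stayed called for Hmga1 (2.13 to 2.59), Hmga2 (1.82 to 3.19), H19 (-6.34 to -3.28) and Meg3 (-3.33 to -0.70) in 14 of 14 alternatives, for Dlk1 in 13 (-6.46 to -1.04, lost when cells were ranked by mVenus, edgeR adjusted p = 0.0938) and for Afp in 8 (-0.03 to 0.94). Low against baseline was called for Hmga1 in 11 of 14 (edgeR adjusted p up to 1.0), Hmga2 in 12 and Afp in 7, intermediate against low for Hmga1 in 9 (up to 0.344) and Dlk1 in 11, and deep against shallow for Hmga2 in 10 of 11 and Dlk1 in 9 of 12. The count of called genes in high against baseline was 1386 by DESeq2. For low against baseline it was 298 by DESeq2, 1033 with no count filter, 254 with no replicate block, 0 with Nras quartiles (541 at an unadjusted p under 0.05) and 5 with mVenus ranks. For intermediate against low it was 226 with a fixed hashtag rule, 566 with no count filter, 0 with no replicate block (807 at an unadjusted p under 0.05), 275 with the gate at 5%, 303 without barcodes with markers of another type, 216 at 30000 UMIs, 0 with quartiles (641 at an unadjusted p under 0.05) and 287 without the highest cells. For high against intermediate it was 3 with the fixed rule, 22 by DESeq2, 184 with no count filter, 0 with no replicate block (365 at an unadjusted p under 0.05), 410 at the 5% gate, 3 without barcodes with markers of another type, 0 at 5000 UMIs (418 at an unadjusted p under 0.05), 1122 with quartiles, 322 with mVenus ranks and 21 without the highest cells. For deep against shallow it was 274 with the fixed rule, 59 at the 5% gate, and 1096 to 3008 leaving out 1 mouse, 3008 without hashtag 3 and 1096 without hashtag 1. The block is the mouse, in whom all bins were measured.

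Signs that reversed were those of Afp in high against baseline with the fixed rule (-0.035). In low against baseline they were Hmga1 with quartiles (-0.16), Meg3 at the 5% gate (0.084), and Dlk1 at 30000 UMIs (-0.029), with quartiles (-1.15), with mVenus ranks (-0.37) and without the highest cells (-1.82). In intermediate against low they were H19 at the 5% gate (0.94), without other-type barcodes (0.26) and without hashtag 1 (0.34, against -4.56 without hashtag 2), Meg3 at the 5% gate (0.10) and with quartiles (0.62), Dlk1 with quartiles (0.11) and mVenus ranks (0.35), and Afp with quartiles (0.23). In high against intermediate they were Hmga2 at 50% mitochondrial UMIs (0.032), the 5% gate (0.96), quartiles (1.36), mVenus ranks (0.50) and without hashtag 1 (0.025, against -0.086 without hashtag 2), Meg3 without hashtag 2 (0.31, against -0.80 without hashtag 1) and Afp without the highest cells (-0.055). In deep against shallow at the 5% gate they were H19 (-1.17), Meg3 (-0.22) and Dlk1 (-0.42). The cause was not tested. The settings at 30000 UMIs and without the highest cells were chosen after seeing the data. Leaving out the highest cell of each sum takes a larger share of the small dosed bins than of baseline, so lower dosed levels of RNAs carried by few cells are built in. Fits of the Nras bins without hashtag 1 or 2 had no residual degrees of freedom, so ratios of the other mouse are given, and a band of 10000 to 30000 UMIs could not be fitted. Depth limits Gpc3, Dlk1 and H19 in the hashtag 1 high bin, where 0 counts allow up to 2.57 CPM.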
